A study of Ovis aries with 24 samples.

Results

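The solute carrier (SLC) genes measured in sheep skeletal muscle are described here across 12 groups of samples. The array platform's annotation assigned 178 single gene symbols of the form SLC plus a number to 249 probe sets, with SLC16A3 left out by the rule. For each symbol the probe set of highest mean log2 signal over the 24 arrays was used. A symbol was selected on its measured signal, a group mean of 100 or more in any of the 12 groups, which kept 71 of 178 symbols, of which 70 (not SLC35E2B) also have an entry among RefSeq's sheep genes, assembly ARS-UI_Ramb_v3.0. Because the highest group decided, members kept through only 1 or 2 groups had to vary between groups: 19 of the 71 were kept that way, while 32 had 100 or more in all 12 groups. Just inside the threshold lay SLC46A1, SLC35D2 and SLC27A4, with highest group signals of 100.1, 100.3 and 102.2, and just outside lay SLC20A2, SLC25A40 and SLC43A1 at 98.3, 96.2 and 94.4. SLC4A1AP and SLC7A6OS are named after a neighbouring or partner transporter gene and are not transporters themselves, so the label holds for 69 of the 71, of which 16 are mitochondrial carriers of the SLC25 family and 53 act in other membranes.

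Solute carriers are membrane proteins that move ions, fuels, building blocks and cofactors across the plasma membrane and the membranes of organelles, either down a gradient or coupled to an ion. In muscle the best known are the glucose transporters, the lactate, creatine, carnitine and amino acid transporters of the cell surface, and the SLC25 carriers of the inner mitochondrial membrane, which exchange ATP for ADP and bring in phosphate, acylcarnitine and the intermediates of the malate-aspartate shuttle. The callipyge mutation is an imprinted sheep mutation: muscle enlarges after birth in lambs that inherit it from the father only, together with a shift towards fast fibres.

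RNA came from cross-bred Dorset/Suffolk/Rambouillet lambs and was hybridised to a bovine Affymetrix GeneChip. Longissimus dorsi (LD), a back muscle that enlarges, was measured in genotypes CC (homozygote), CN (NCpat, the paternal heterozygote that shows the trait), NC (CmatN, the maternal heterozygote) and NN (wild type), within 5 days of birth (T0) and at 11 to 12 weeks (T12). Supraspinatus (SS), a shoulder muscle that does not enlarge, was measured at T12 in CN and NN, and 2 more muscles, coded SM and ST (semitendinosus), at T12 in NN. The muscle coded SM is named in more than 1 way in the labels and is left as a code. Ages follow the sample titles, because several samples titled T12 are elsewhere labelled as taken at birth. Each group has 2 arrays that the labels call technical, averaged to 1 value. The protocol describes 8 male lambs, 4 of each of a pair of genotypes, while 4 genotypes were arrayed, so the number of animals behind an array is unknown, and p-values measure the spread between group values only. That spread comes from LD alone, from the differences among CC, NC and NN at each age: CN, SS, SM and ST each enter as 1 group value per muscle and age, assumed to vary like those LD groups. Where muscles are compared with LD, the LD side is the mean of CC, NC and NN, while SS, SM and ST are NN only.

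Median signal per array was 47.4 to 59.7, and it was lower on both CN arrays at T0 (47.4 to 48.1) than on the 6 arrays of the other genotypes at that age (50.1 to 52.9). Log2 values of paired arrays correlated with r of 0.974 to 0.988. Of 12 skeletal muscle markers 9 were on the array, and all 9 lay above the lowest array median in every group. The summed signals of other marker lists are given beside the results: slow fibre (8 of 10 on the array), fast fibre (8 of 11), fibroblast (8 of 8), smooth muscle (6 of 6), endothelial (7 of 8, KDR and EGFL7 below the lowest array median throughout), adipocyte (7 of 8, LEP and RETN below it throughout), red blood cell (7 of 9, ALAS2 and EPB42 below it throughout), immune (5 of 8, PTPRC below it throughout) and nerve (5 of 8, NEFL below it throughout). Signals are MAS5 intensities, and differences are log2 differences with the standard error (SE) of a limma fit over all 15613 tested probe sets. A change was called at a Benjamini-Hochberg adjusted p under 0.05. Signals of different probe sets are not comparable, so each gene or marker sum is set only against itself, and below 47.4 a signal may not be above background. Above 47.4 in every group lay only 1 of 7 red blood cell, 1 of 5 nerve, 2 of 5 immune, 3 of 7 adipocyte and 4 of 7 endothelial markers. The sums of these 5 lists may therefore hold background. In whole muscle, fewer cells of a type and less RNA per cell cannot be told apart. Array number and signal over background limit the precision.

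**Figure D1:**
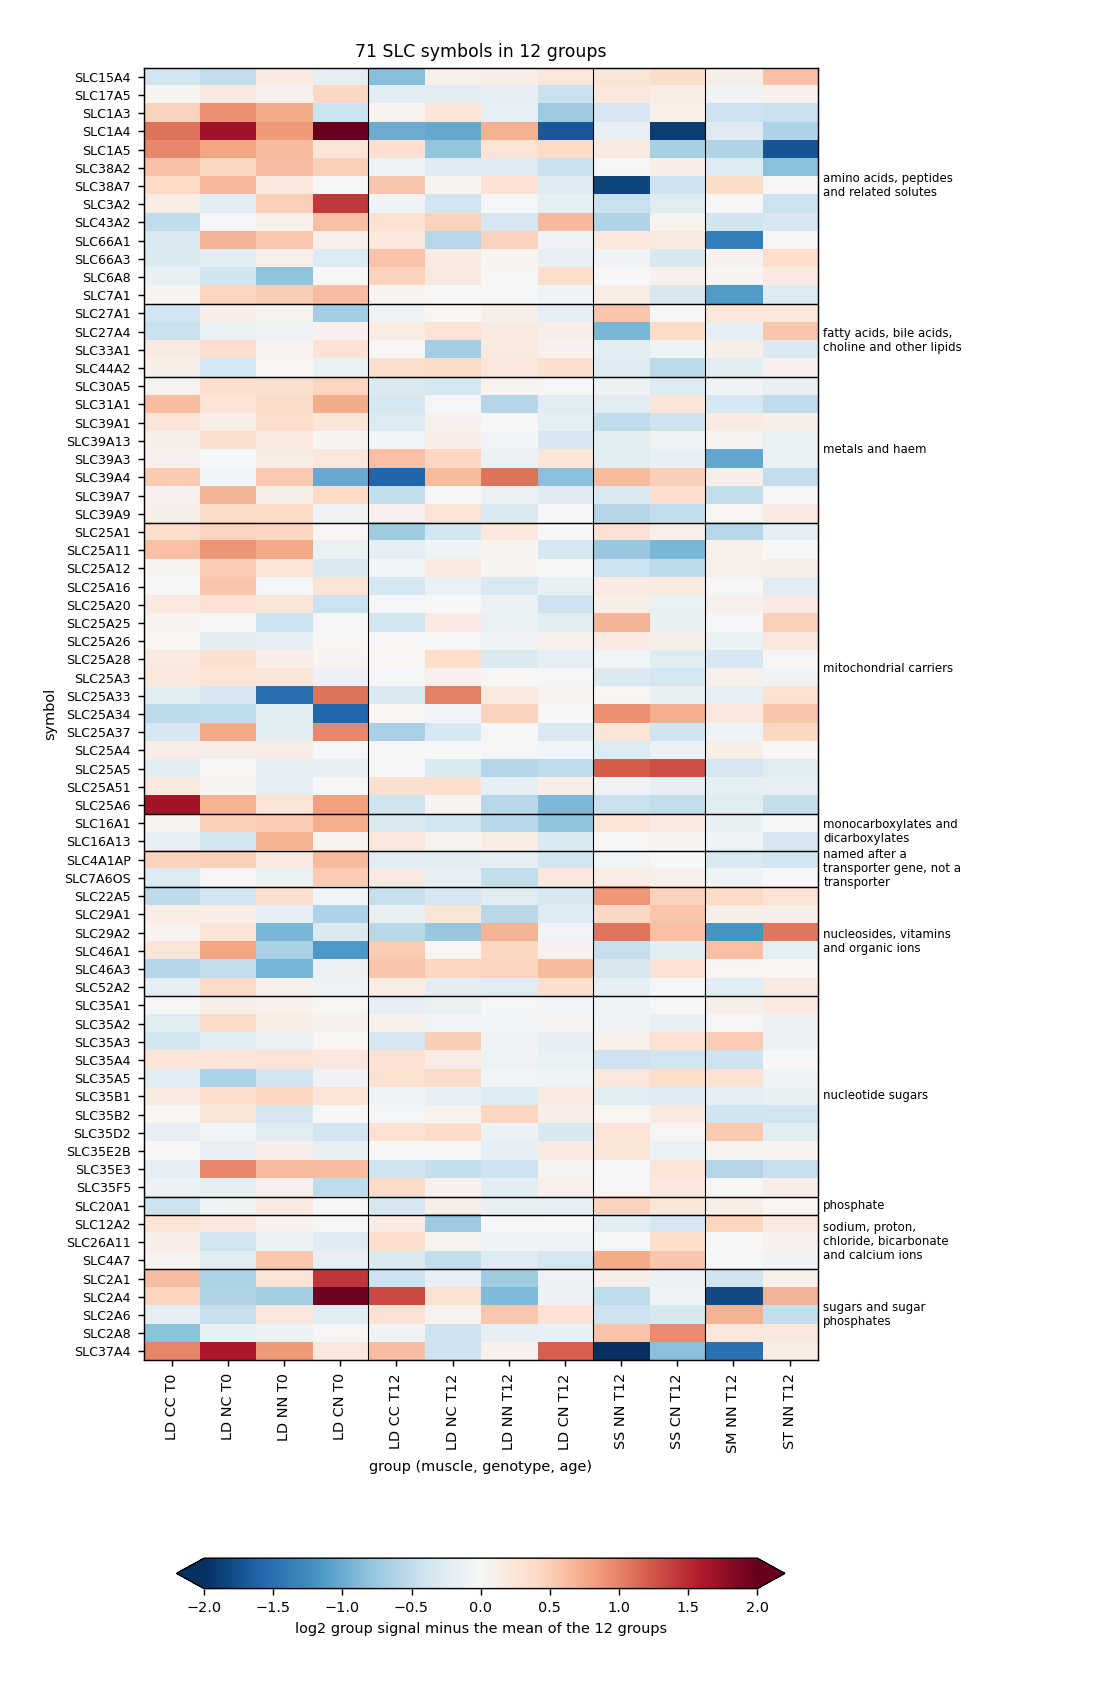
Heat map of the 71 SLC symbols (rows, ordered by substrate class) in 12 groups (columns: muscle, genotype, age). Colour is the log2 group signal minus that symbol's mean over the 12 groups, red for higher and blue for lower; each group is the mean of 2 arrays. SLC25A5 is red in both SS columns (844 and 887), and SLC25A11 is red in the T0 columns of CC, NC and NN (6632, 8067 and 7454).

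Growth after birth gave most of the calls. Between T0 and T12 in LD of CC, NC and NN, 9 of 71 members changed, 2 higher (SLC46A3, SLC25A34) and 7 lower (SLC25A11, SLC38A2, SLC16A1, SLC4A1AP, SLC31A1, SLC25A6, SLC35B1). Of all 15613 probe sets 11.7% were called, 5.92% higher and 5.81% lower, so the members' share of 12.7% is near the background. Their median was −0.17 against 0.06 for all probe sets, with 25 of 71 positive against 54.9% of all probe sets. Several members, such as SLC1A3 and SLC39A9, were kept through T0 groups alone, and SLC39A3 and SLC39A4 through T12 groups alone. The rule thus used values of this contrast, and nothing is read from the median or the sign count. Next in order, without passing, came SLC25A20 at −0.30 ± 0.09 (adjusted p = 0.0592). Over the same ages and genotypes, summed red blood cell markers were 492 to 635 at T0 and 204 to 247 at T12, and fibroblast markers 62083 to 71015 and 44266 to 55430.1. Skeletal muscle markers were 195753 to 220203 and 244430.0 to 261584, fast fibre markers 179019 to 196051 and 201791 to 217385, smooth muscle markers 4271 to 4734 and 5536 to 7242, and immune markers 248 to 329 and 456 to 560.4. The ranges of the slow fibre, adipocyte, endothelial and nerve lists overlap between the ages; their part in these changes was not tested. Without LD CC T12 replicate 2 or LD NC T12 replicate 2 the count was 5, and without the intensity trend it was 1 (239 over all probe sets).

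SLC25A11, the malate-oxoglutarate exchanger of the malate-aspartate shuttle, was highest in newborn LD of the genotypes other than CN. It gave 6383, 7461 and 8069 (lowest, median and highest of the 6 CC, NC and NN arrays at T0). Both CN arrays at T0 lay below all of these, at 4071 and 3946.5. At T12 the same 3 genotypes gave 3244, 4126 and 5259, also without overlap with T0, and CN gave 4127 and 2921, of which the lower lies under the range of the other genotypes. SLC25A11 fell with age by 0.82 ± 0.11 on the log2 scale (SE, limma adjusted p = 0.00127), from a group mean of 7361 to 4175. The CN difference at T0 was −0.88 ± 0.15 (adjusted p = 0.05003, just above the threshold), and at T12 it was −0.27 ± 0.15 (adjusted p = 0.636). These 2 comparisons at T0 and with age share the T0 arrays of CC, NC and NN. Another SLC25A11 probe set was too dim to be tested.

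Between muscles, SLC25A11 was lowest in the shoulder. The SS arrays read 2569 and 2631 in NN and 2283 and 2381 in CN, against 4494 and 4981 in SM and 4149.9 and 4681 in ST. All 4 SS arrays lay below every SM and ST array, and in NN the difference from SM and ST was −0.81 ± 0.16 (adjusted p = 0.0439). That call was lost in 10 of the 24 fits that leave out 1 array, with adjusted p up to 0.158, while the difference stayed between −0.86 and −0.77. SLC25A12, the aspartate-glutamate carrier of the same shuttle, had group signals of 3931, 5331 and 4488 in CC, NC and NN at T0 and 3048 in CN, and 2788 and 2609 in SS NN and CN. Its differences did not pass in either comparison: −0.58 ± 0.17 for CN at T0 (adjusted p = 0.191) and −0.54 ± 0.18 for SS against SM and ST (adjusted p = 0.265). A second SLC25A12 probe set gave −0.33 and −0.60, and the other −0.91 and −0.28, all negative and none called.

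The 3 ADP/ATP translocases among the members and the phosphate carrier, which together supply ATP synthase and export its product, had different patterns. The translocases are close in sequence and the probes were designed for cattle; cross-hybridisation was not tested. SLC25A4, the translocase form typical of heart and skeletal muscle, stayed between 19427 (SS NN) and 26003.5 (LD NN T0) over all 12 groups, the smallest range of the 4. SLC25A3, the phosphate carrier, lay between 13433.5 in SS CN and 20761 in LD NC at T0. For CN at T0 its difference was −0.36 ± 0.12 (adjusted p = 0.227), with arrays of 14779 and 16808.5 against 19200.5 to 21725 in the other genotypes, which do not overlap. SLC25A4 in SS against SM and ST was −0.33 ± 0.12 (adjusted p = 0.292), not called.

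SLC25A5, a translocase form found in many tissues, stood out in the shoulder muscle. Its arrays read 866 and 822 in SS NN and 981 and 802 in SS CN. Every other array of the series lay between 225 and 369, so both SS genotypes were apart from LD, SM and ST at either age. SLC25A5 was higher in SS NN than in SM and ST by 1.5 ± 0.25 (844 against 298, adjusted p = 0.0203), against a spread estimated in LD only, and this call was kept in all 24 fits that leave out 1 array. Over the 4 muscles its log2 range was 1.55 (F test, adjusted p = 0.0356), which uses the same SS, SM and ST arrays; that call was lost in 6 of the 24 fits. Within SS, CN minus NN was 0.07 ± 0.29. The second SLC25A5 probe set had the opposite sign in the shoulder, at −0.48 (adjusted p = 0.684), and it alone fell with age, by 1.80 (adjusted p = 0.00137) from group signals of 322 to 604 in CC, NC and NN at T0 to 111 to 159 at T12. The probe set used by the rule gave −0.17 ± 0.17 with age. Which of the 2 follows the SLC25A5 transcript in sheep was not tested.

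SLC25A6, the other widely expressed translocase, fell with age. The 6 arrays of CC, NC and NN read 4906, 6827 and 13733 at T0 and 2395, 3312 and 5891 at T12 (lowest, median, highest). CC at T0 was apart from the others at 13733 and 12921, and the 2 ages overlap in 1 NC array of T12. The change was −1.18 ± 0.29 (adjusted p = 0.0221), and it did not pass without LD NC T12 replicate 2 (−1.03, adjusted p = 0.0883). Its other 2 tested probe sets gave −0.40 and 0.31 and were not called, so the fall rests on 1 of 3 probe sets. CN arrays read 6575 and 8420.1 at T0, inside the range of the other genotypes, and 2435 and 2115 at T12, of which 1 lies under it.

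SLC25A20 carries acylcarnitines into the matrix for fatty acid oxidation. At T0 the other genotypes gave 3180.2, 3448 and 3679 and CN 2105.5 and 2185, with no overlap. The CN difference was −0.67 ± 0.13 at T0 (adjusted p = 0.0575) and −0.36 ± 0.13 at T12 (adjusted p = 0.350), neither called. The T12 value rests on 1 array: the CN arrays read 2855 and 1639, and the difference was −0.76 without the first (adjusted p = 0.0215) and 0.041 without the second. In SS, CN minus NN was −0.26 ± 0.16. A second, dimmer probe set gave −0.42 at T0 and, with the opposite sign, 0.17 at T12.

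SLC25A34, a carrier whose substrate is not settled, had the lowest value of the series in newborn CN muscle. The 2 CN arrays at T0 read 423 and 422 against 827, 915 and 1096 in the other genotypes, a log2 difference of −1.14 ± 0.21 (adjusted p = 0.0515, not called). In those other genotypes it rose with age by 0.58 ± 0.15 (adjusted p = 0.0279) to 1108, 1367 and 2040.0, a call lost without replicate 2 of CC or of NC at T12 (adjusted p up to 0.0832), and CN at T12 lay among them at 1187 and 1301. The change of the CN difference between the ages was 0.98 ± 0.29 (adjusted p = 0.369). SS had the highest group signals, 2372 in NN and 2069 in CN. A second probe set gave −0.46 for CN at T0 and 0.33 with age, with the same signs and no call.

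SLC25A33, which carries pyrimidine nucleotides, had its highest signal in newborn CN muscle. Group signals at T0 were 583, 540.1 and 238 in CC, NC and NN and 1454 in CN (arrays 1525 and 1385). The genotypes without the trait spread widely among themselves, and NC reached 1366 at T12 against 552 in CC. The CN difference at T0 was 1.78 ± 0.51 (adjusted p = 0.171), and the second probe set gave 1.49.

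Of the other mitochondrial carriers, SLC25A26 (S-adenosylmethionine) kept between 468 and 629 in all groups and SLC25A51 (NAD) between 216 and 312. The iron carrier SLC25A28 lay between 275 and 446, and its relative SLC25A37, an erythroid form kept through NC and CN at T0 alone, between 41.2 and 126. The citrate carrier SLC25A1 gave −0.70 ± 0.25 with age, and SLC25A16 ranged from 120.2 to 224. SLC25A25, a calcium-regulated ATP-Mg/phosphate carrier, was highest in SS NN at 188 against 105 in SS CN, a difference of −0.83 ± 0.39 that was not called. A second, dimmer SLC25A25 probe set had the opposite sign in SS, with 30.3 in NN and 45.4 in CN. As a class, the 16 mitochondrial carriers had a median of −0.11 in CN at T0 (11 of 16 lower), −0.09 in CN at T12 (12 lower, or 9 lower after quantile normalization), −0.15 for CN in SS (13 lower) and −0.19 with age (11 lower). The medians over all tested probe sets were −0.02, −0.05, −0.00 and 0.06 in the same comparisons, and 48.0%, 44.7%, 49.8% and 54.9% of them were positive. After quantile normalization the class medians were −0.046, −0.042, −0.144 and −0.168, with 6, 7, 3 and 4 of the 16 positive. The 16 include SLC25A37, for which the rule used T0 values.

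**Figure D2:**
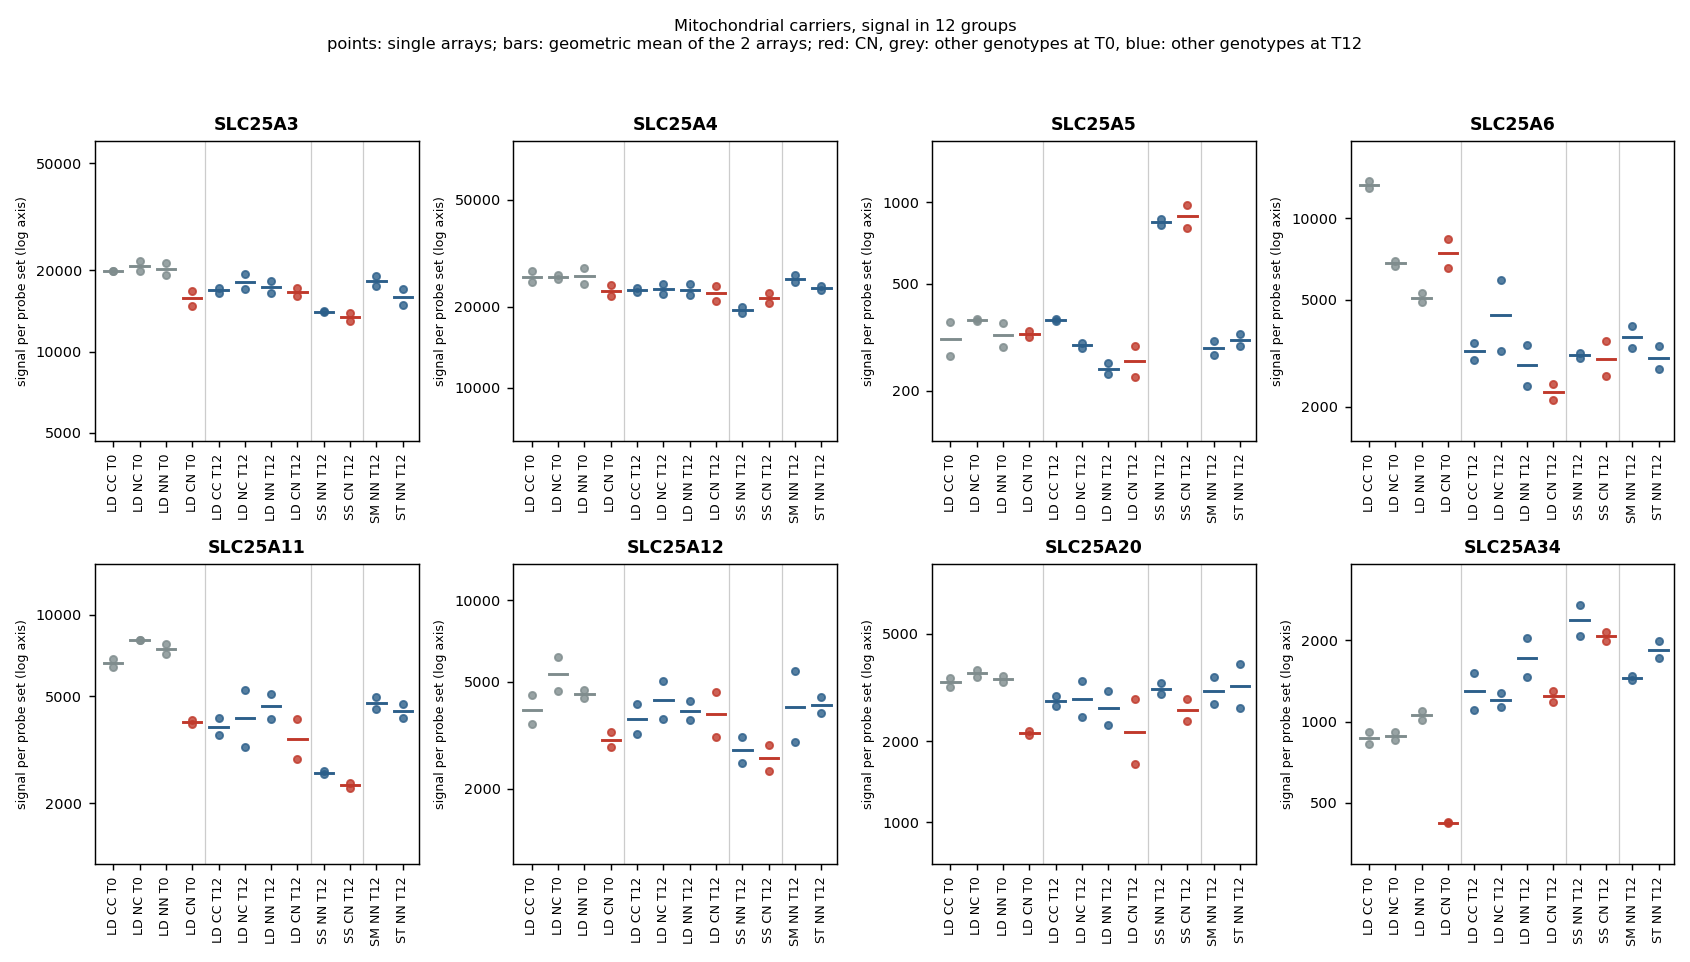
Signal of 8 mitochondrial carriers (log axis, arbitrary MAS5 units) in 12 groups. Points are single arrays and bars the geometric mean of 2 arrays; CN is red, other genotypes are grey at T0 and blue at T12. SLC25A5 lies at 802 to 981 in the 4 SS arrays, and SLC25A34 at 422 and 423 in the CN arrays of T0.

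Among the amino acid carriers, SLC38A2, which takes up glutamine and other small neutral amino acids, fell with age. The arrays of CC, NC and NN read 1338, 1492 and 1646 at T0 and 692.5, 862 and 1049 at T12, without overlap, and CN gave 1591 and 1261.5 and 668 and 830.4. The change was −0.74 ± 0.11 (limma adjusted p = 0.00237), and a second probe set fell as well, by 0.68 (adjusted p = 0.0151). Signals at T12 were 987 in SS NN, 838 in SM and 569 in ST, and SS against SM and ST gave 0.52 ± 0.17 (adjusted p = 0.240).

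SLC3A2, the heavy chain that brings several amino acid exchangers to the cell surface, was highest in newborn CN muscle. The CN arrays at T0 read 580.4 and 507, and the other 22 arrays of the series lay between 120.3 and 316. At T0 the difference from CC, NC and NN was 1.27 ± 0.29 (adjusted p = 0.0891, not called); at T12 it was −0.03 ± 0.29. Its light chain partner SLC7A5 was not kept, with a highest group signal of 61.7.

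SLC38A7, a lysosomal glutamine and asparagine carrier, read 48.1 and 10.7 in SS NN, 74.1 and 50.7 in SS CN, 131 and 84.7 in SM and 129 and 48.9 in ST. In NN it was lower in SS than in SM and ST by 2.01 ± 0.36 on the log2 scale (adjusted p = 0.0270). One dim SS array sets the size: without SS NN T12 replicate 2 the difference was −0.93, and the call was also lost without LD NC T12 replicate 2 or ST NN T12 replicate 1. Over the 4 muscles the range was 2.21 (adjusted p = 0.0381), lost in 9 of 24 fits.

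Neutral amino acid exchangers SLC1A4 and SLC1A5 and the glutamate transporter SLC1A3 were each kept through 1 or 2 groups of T0, so their age and T0 values are given as a description. SLC1A4 had 184 in CN, 120.2 in NC, 79.8 in CC and 68.0 in NN at T0. All T12 groups gave 10.1 to 61.4, the highest in LD NN. A second, dimmer SLC1A4 probe set gave 18.6, 45.5, 16.8 and 49.2 in LD of CC, NC, NN and CN at T0. At T12 the same groups gave 48.7, 36.8, 17.7 and 13.5. For SLC1A5 the T0 groups gave 71 to 117 and the T12 groups 18.1 to 79.2. SLC1A3 gave 41.8 in CN and 77.6, 106 and 94.3 in CC, NC and NN at T0. SLC7A1, the cationic amino acid transporter, lay between 31.9 (SM) and 106 (CN T0).

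SLC6A8, which takes up creatine, had arrays of 83.1, 120.3 and 149.7 at T0 and 134, 201 and 226 at T12 in CC, NC and NN, overlapping slightly, and a difference of 0.68 ± 0.21 that did not pass (adjusted p = 0.0634). The lysosomal and other members SLC15A4, SLC17A5, SLC43A2, SLC66A1 and SLC66A3 had no call in any comparison. With age the 13 members of the class had a median of −0.30 (9 lower) and 1 call. They include SLC1A3, SLC1A4, SLC1A5 and SLC7A1, kept through T0 groups alone, so nothing is read from the median or the sign count.

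Lactate, pyruvate and ketone bodies cross the cell surface through SLC16A1. Its arrays in CC, NC and NN gave 427, 565 and 655 at T0 and 245, 329 and 504 at T12, and in CN 783 and 644 and then 249 and 247.5. The 3 other genotypes fell by 0.76 ± 0.16 (adjusted p = 0.00967); the ages overlap in 1 CC array of T12, and without the other CC array at T12 the call was lost (−0.59, adjusted p = 0.106). CN held the highest group signal of the series at T0, 710.4, and the lowest at T12, 248; the change in its difference from the others was −0.75 ± 0.31 (adjusted p = 0.509). In the other muscles it gave 523 in SS NN, 483 in SS CN, 390.4 in SM and 429.9 in ST, each above the 248 to 351 of the LD groups at T12, without a call (SM and ST against LD 0.34 ± 0.17). SLC16A13, a relative, ranged from 65.7 to 138.

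The glucose transporters were dim. SLC2A4, the insulin-regulated form of muscle and fat, was kept through CN at T0 alone, where its arrays read 163 and 117; the other 11 groups had signals of 10.2 to 89.6. Single arrays of a pair differed by up to 8.76-fold (CC at T0, 144.5 and 16.5), and 8 of the 12 group signals lay below 47.4. SLC2A1, the basal form, was kept through CC and CN at T0: the CN arrays gave 207 and 217, the CC arrays 128 and 114, and the other groups 47.9 to 95.5. These values chose both members and are given without a test. SLC2A3 was not kept, with a highest group signal of 49.2.

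SLC37A4, which moves glucose-6-phosphate into the endoplasmic reticulum, ranged from 6.29 in SS NN to 151 in LD NC at T0. Arrays at T12 read 6.0 and 6.6 in SS NN, 30.1 and 10.2 in SM and 56.6 and 53.2 in ST, and 26.2 to 84.7 in LD of CC, NC and NN. Over the 4 muscles the log2 range was 3.12 (F test, adjusted p = 0.0418), lost in 10 of 24 fits, and the low side is below the array medians. A second SLC37A4 probe set had the opposite sign both in SS against SM and ST (0.81 against −2.30) and with age (1.51 against −1.05), so no direction is given for this gene. SLC2A6 and SLC2A8 had highest signals of 113 in SM and 126 in SS CN.

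No carrier of fatty acids or carnitine was called. SLC22A5, the carnitine transporter of the cell surface, gave 259 in SS NN and 196 in SS CN, 188 in SM, 172 in ST and 104 to 120.4 in the 4 LD groups of T12. Arrays of a pair differed by up to 2.50-fold, and SM and ST against LD gave 0.68 ± 0.26 (adjusted p = 0.598). A second, dimmer SLC22A5 probe set lacked this pattern. It gave 83.9 in SS NN, 81.2 in SS CN, 71.5 in SM, 74.2 in ST and 69.4 to 88.4 in LD at T12. The fatty acid transport protein SLC27A1 read 134 and 158 in SS NN and 99.2 and 98.9 in SS CN, and 62.1 to 117 elsewhere. A second, dimmer SLC27A1 probe set had the opposite sign in SS, with 30.7 in NN and 53.7 in CN. SLC27A4, a relative, was 37.0 in SS NN, 91.5 in SS CN and 102 in ST, the group through which it was kept. SLC33A1 (acetyl-CoA) and SLC44A2 (choline) had no call.

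SLC46A3, a lysosomal carrier, was the member that rose most with age. The arrays of CC, NC and NN read 68.4, 95.4 and 158 at T0 and 182, 227 and 261 at T12, without overlap, a rise of 1.15 ± 0.18 (adjusted p = 0.00297). CN went from 166 and 125.5 to 181 and 328. It passed in all 24 fits that leave out 1 array and under all 8 other alternatives. SS, SM and ST lay lower at T12, at 126 to 192, against 212 to 244 in LD, and SM and ST against LD gave −0.45 ± 0.20 (adjusted p = 0.679). Among the other vitamin and nucleoside carriers, SLC29A1 was highest in SS (216 and 197 in CN and NN) and lowest in CN at T0 (95.6), without a call. SLC29A2, a relative, passed 100 in SS NN and ST alone (117 and 116). The folate carrier SLC46A1 was 26.1 in CN at T0 and reached 100 in NC of that age alone. The riboflavin carrier SLC52A2 lay between 116 and 181; of its 2 dimmer probe sets, 1 fell with age (−1.31, adjusted p = 0.0423) and the other gave −0.41.

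SLC31A1 brings copper into the cell. It gave 274, 307 and 461 at T0 and 153, 197 and 256 at T12 in CC, NC and NN, without overlap, and 434 and 390.0 and then 205 and 221 in CN. The fall of 0.75 ± 0.18 (adjusted p = 0.0207) did not pass without LD CC T12 replicate 2 or without LD NC T12 replicate 2 (adjusted p up to 0.0611). Among the zinc carriers SLC39A1 lay at 136 to 245, SLC39A13 at 231 to 363, and the exporter SLC30A5 at 97.7 to 167, with SLC39A7 at 69.8 to 156. The dimmer SLC39A3, SLC39A4 and SLC39A9 had highest signals of 129, 105 and 108, and none of the 7 zinc carriers of the SLC30 and SLC39 families was called. With age 7 of the 8 metal carriers had negative differences (median −0.30), and 1 passed. SLC39A9 was kept through NC and NN at T0 alone, and SLC39A3 and SLC39A4 through T12 groups of LD alone. In LD, SLC39A7 reached 100 at T0 only. The rule thus used values of this contrast, and nothing is read from the count or the median.

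The SLC35 carriers supply the Golgi and endoplasmic reticulum with nucleotide sugars and related donors. SLC35B1, which imports ATP into the endoplasmic reticulum, was the only one of 11 with a call. Its arrays in CC, NC and NN read 614.5, 758 and 845 at T0 and 426, 547 and 623 at T12, overlapping in 1 array of each age, and CN held 698 and 731 and 729.9 and 629. It fell with age in the other genotypes by 0.49 ± 0.12 (adjusted p = 0.0255), a call lost when replicate 1 of CC at T0, replicate 2 of NC at T12 or replicate 1 of NN at T12 was left out (adjusted p up to 0.106). At T12 CN minus the other genotypes was 0.36 ± 0.17 (adjusted p = 0.548). SLC35A1, the CMP-sialic acid carrier, lay within 1009 to 1318, and SLC35B2, the sulfate donor carrier, within 100.4 to 179. SLC35E3, of unknown substrate, gave −0.90 ± 0.28 with age (not called). Group signals of the rest were 87.9 to 135 for SLC35A2, 79.5 to 146 for SLC35A3, 167 to 271 for SLC35A4, 58.3 to 116 for SLC35A5, 53.8 to 100.3 for SLC35D2, 105 to 141 for SLC35E2B and 79.9 to 148 for SLC35F5.

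Of the ion and phosphate carriers, SLC20A1 (sodium-phosphate) lay at 189 to 351, SLC12A2 (sodium-potassium-chloride) at 147 to 327, and SLC4A7 (sodium-bicarbonate) was highest in SS NN at 123. None of these, nor SLC26A11, was called. Of the 2 symbols that are not transporters, SLC4A1AP fell with age by 0.58 ± 0.13 (limma adjusted p = 0.0150), a call lost without LD CC T12 replicate 2. SLC7A6OS was 259 in CN at T0 against 151 to 186 in the other genotypes, not called. A second, dimmer SLC7A6OS probe set gave 58.3 in CN at T0, inside the range of CC, NC and NN (35.4, 70.3 and 54.5). The red cell anion exchanger SLC4A1 stayed at 9.53 or less in every group.

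**Figure D3:**
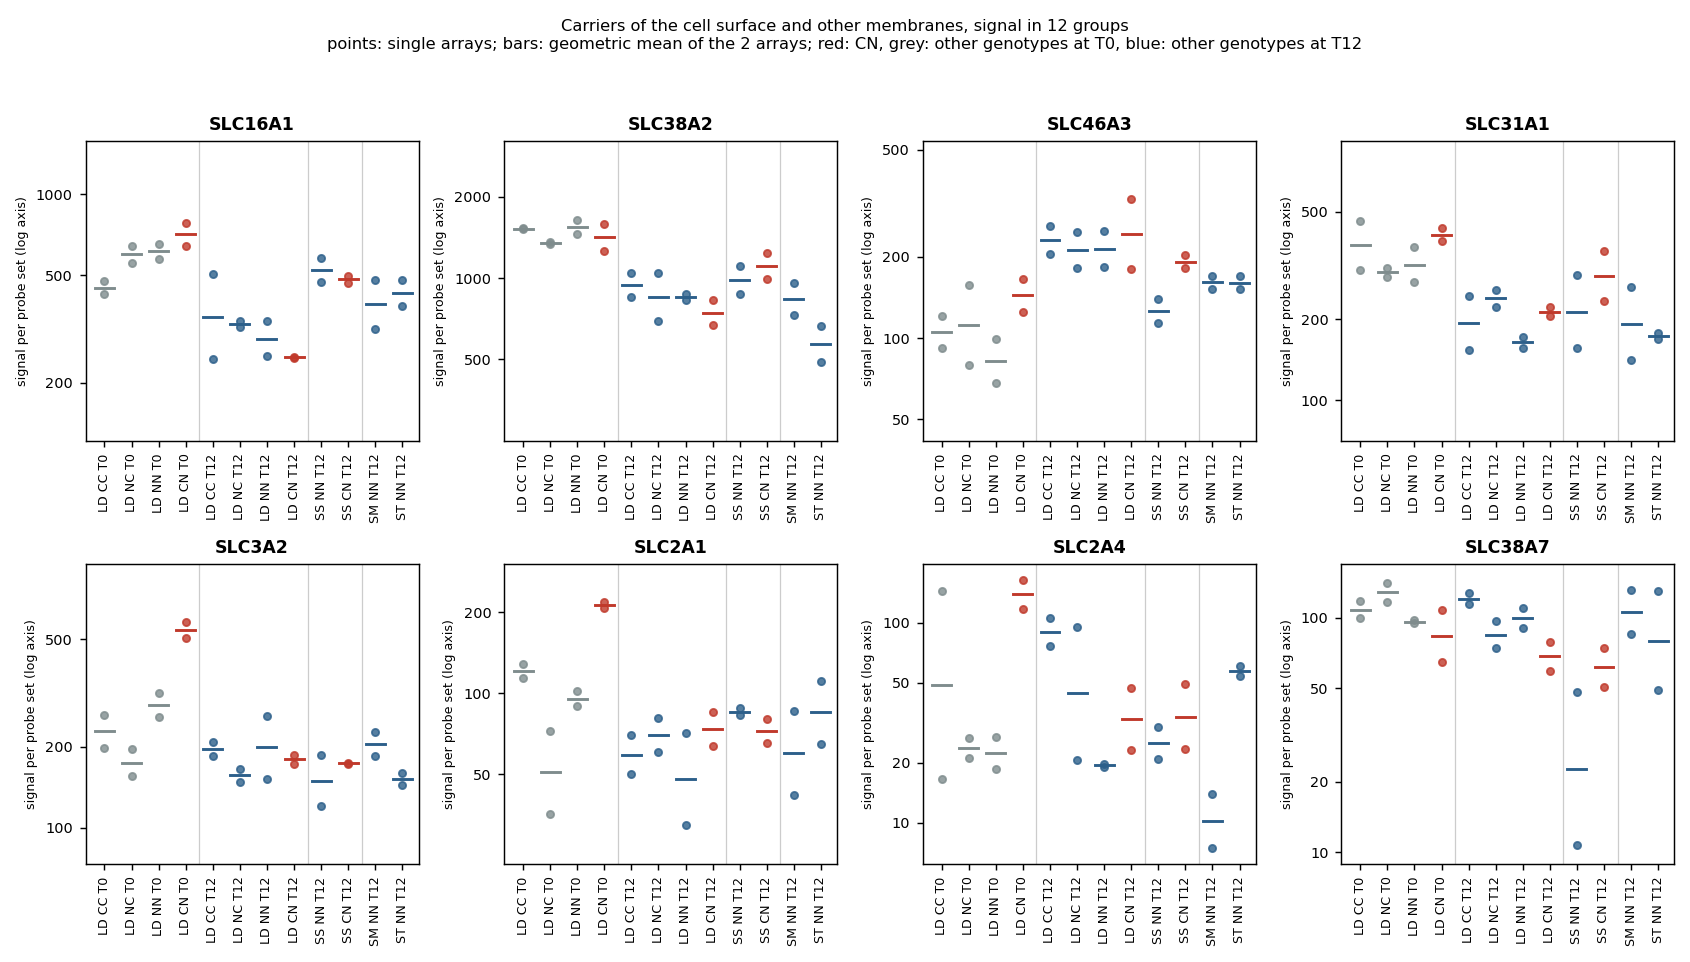
Signal of 8 carriers of other membranes (log axis, arbitrary MAS5 units) in 12 groups. Points are single arrays and bars the geometric mean of 2 arrays; CN is red, other genotypes are grey at T0 and blue at T12. SLC3A2 and SLC2A1 have their highest arrays in CN at T0 (507 and 580.4; 207 and 217), and the 2 arrays of SLC2A4 in CC at T0 are 144.5 and 16.5.

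In newborn LD, CN differed from CC, NC and NN in no member at an adjusted p under 0.05 in limma, where 0.173% of all probe sets (27) were called. Unadjusted, 12 of 71 members were under 0.05 against 11.7% of all probe sets, and 6 of the 12 are mitochondrial: SLC25A11, SLC25A34, SLC25A20, SLC25A12 and SLC25A3, all with lower CN values, and SLC25A33 with a higher one. Of the other 6, SLC3A2 and SLC7A6OS had higher CN values, though a second SLC7A6OS probe set lay inside the range of the other genotypes. SLC2A1, SLC2A4, SLC1A3 and SLC46A1 were kept through 1 or 2 groups of T0. The rule thus used this contrast, and nothing is read from the count. The call count depends on the fit: fitted on single arrays with the group as a random block it was 6 (SLC25A11, SLC25A34, SLC25A20, SLC25A3, SLC25A33 and SLC3A2), and without CC among the comparators it was 4. Most marker sums were lower in CN than in all 3 other genotypes: skeletal muscle 178151 against 195753 to 220203, slow fibre 98822 against 113806 to 124028, fast fibre 159705 against 179019 to 196051, fibroblast 49906 against 62083 to 71015, smooth muscle 3811 against 4271 to 4734, endothelial 1981 against 2297 to 2646 and red blood cell 349 against 492 to 635. The adipocyte, immune and nerve sums lay inside the range of the others, and array medians were lower as given above; their part was not tested. The members' median was −0.04, and −0.02 for all probe sets.

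At T12, when the trait is developed, no member was called for CN in LD (background 0.179%, 28 probe sets), and 1 of 71, SLC25A20, was under an unadjusted 0.05 against 10% of all probe sets. By p the next were SLC37A4 (kept through this CN group, and with probe sets of opposite sign), SLC35B1, SLC1A3 (−0.77 ± 0.40) and SLC39A13 (−0.35 ± 0.20). Marker sums below the range of the other genotypes in CN were skeletal muscle (238988 against 244430.0 to 261584), slow fibre (75750.3 against 107943 to 136672), fibroblast (33529 against 44266 to 55430.1), endothelial (2351 against 2553 to 2949.6), adipocyte (431 against 614 to 967), immune (378 against 456 to 560.4) and nerve (324 against 395 to 543), while fast fibre, smooth muscle and red blood cell sums lay inside it; their part was not tested. Between the ages, 0 of 71 CN differences changed (background 0%, and unadjusted 8 of 71 against 8.94%). SLC37A4, SLC1A4 and SLC2A4 among the 8 were kept through groups of this contrast, so nothing is read from the count. First by p were SLC25A34 and SLC3A2 (−1.30 ± 0.41, adjusted p = 0.397).

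In SS, CN against NN gave no call (background 0%, unadjusted 3 of 71 against 4.17%). The 3 were SLC38A7 (1.43 ± 0.42), SLC27A4 (1.31 ± 0.41) and SLC37A4, with SS NN signals of 22.7, 37.0 and 6.29, all below the lowest array median. The difference between SS and LD in the CN effect was called for none (background 0%, unadjusted 2 of 71 against 4.96%), and the smallest p was that of SLC38A7 (1.99 ± 0.54, adjusted p = 0.658). These comparisons share the SS NN arrays with the muscle comparison. In the second of them the SS side sets CN against NN only, and the LD side sets CN against CC, NC and NN.

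Among the muscles of NN lambs, 3 of 71 members differed between SS and the muscles SM and ST, SLC25A5 higher and SLC38A7 and SLC25A11 lower, where 0.999% of all probe sets were called. Each of these muscles is a single group value, and the standard errors rest on the LD groups, so that leaving out LD arrays alone was enough to lose the SLC25A11 call. Marker sums higher in SS NN than in both SM and ST were slow fibre (195014 against 165458 and 130344), adipocyte (2784 against 1326 and 1494) and nerve (409 against 384 and 313). Lower than in both were skeletal muscle (220417 against 252343 and 235345), fast fibre (167471 against 204868 and 193625), smooth muscle (4804 against 7584 and 6636), endothelial (1952 against 2945 and 2037), immune (461 against 626 and 586) and red blood cell sums (137 against 316 and 206); their part was not tested. Over the 4 muscles 3 of 71 passed the F test (SLC25A5, SLC38A7 and SLC37A4, against a background of 1.29%). Here, and in SM and ST against LD, the LD side is the mean of CC, NC and NN and not NN alone. SM and ST against LD gave none (background 0.0448%, unadjusted 7 of 71 against 7.33%), with SLC39A3 (−0.89 ± 0.27, kept through LD groups of T12 and so only described), SLC1A5 (−1.10 ± 0.38) and SLC38A2 (−0.35 ± 0.12) first by p.

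**Figure D4:**
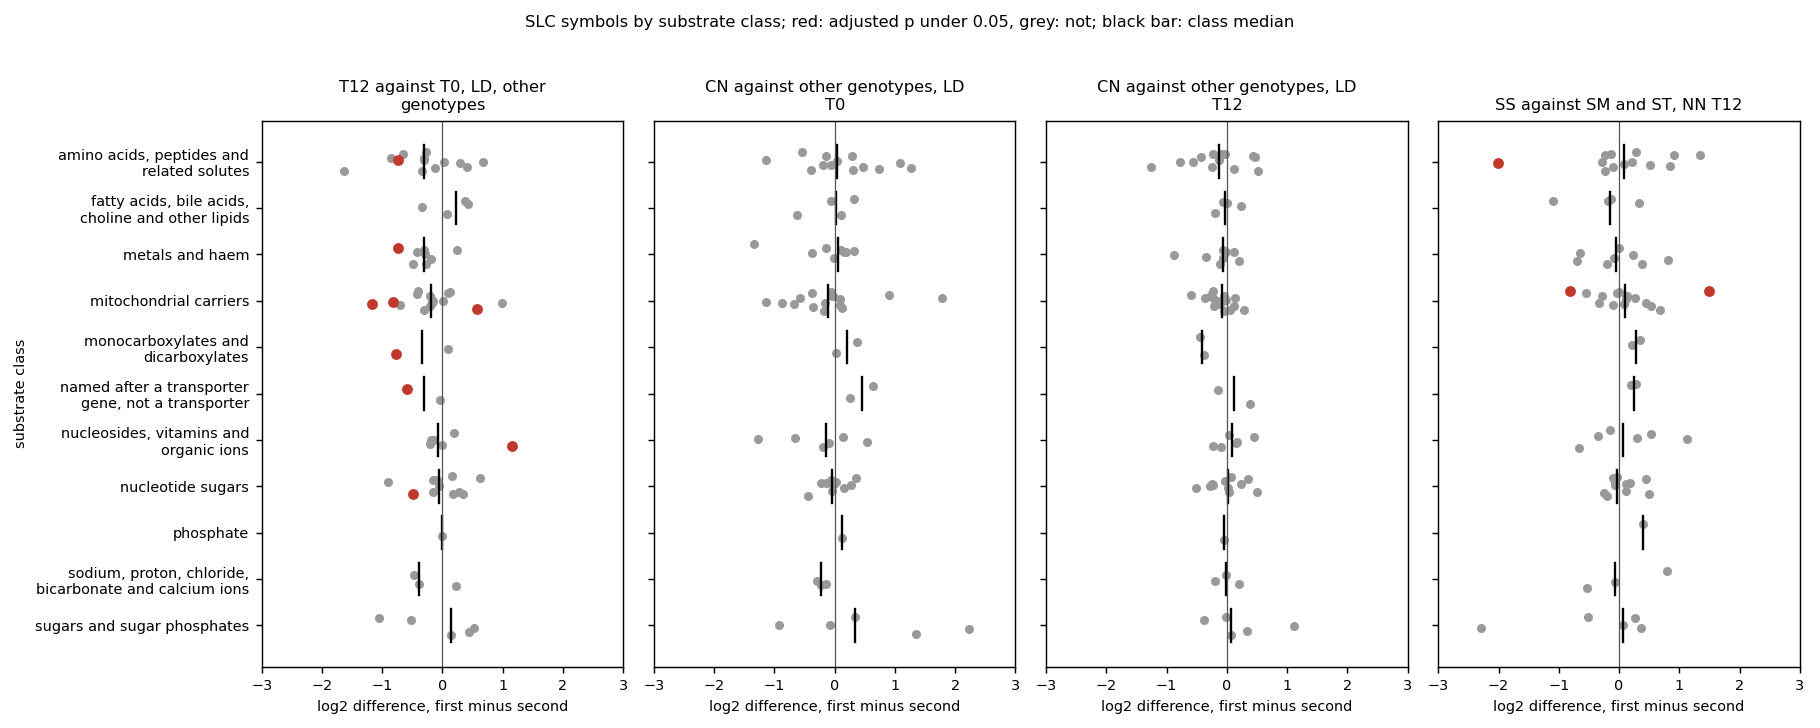
Log2 differences of the 71 SLC symbols by substrate class in 4 comparisons (x axis: first minus second group, log2 signal). Red points passed a limma adjusted p under 0.05, grey points did not, and black bars are class medians. The age panel holds 9 red points and the SS panel 3; both CN panels hold none.

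Of 32 carriers listed for their known roles in muscle, 22 were kept and 7 were too dim for the rule (SLC2A3, SLC6A6, SLC7A5, SLC8A1, SLC20A2, SLC39A14 and SLC4A1); the others were not analysed here. By substrate class the rule kept 16 of 27 mitochondrial carriers and 11 of 16 nucleotide sugar carriers, 13 of 35 for amino acids, 8 of 21 for metals, 6 of 22 for nucleosides, vitamins and organic ions, 5 of 17 for sugars and 3 of 17 for ions.

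A further 43 genes were listed, of which 26 were tested: pumps, mitochondrial channels, carriers without an SLC symbol, ABC transporters and partner proteins. The mitochondrial carriers without an SLC symbol are not in the class counts above. With age 5 of 26 were called, against 11.7% of all probe sets, and in SS against SM and ST 2 of 26, against 0.999%. With age UCP3, an uncoupling protein of muscle mitochondria, rose by 0.84 ± 0.18 (adjusted p = 0.0126) and the ABC transporter ABCC1 by 1.21 ± 0.20 (adjusted p = 0.00391). The sodium pump subunit ATP1B3 (−0.64 ± 0.11), the outer membrane protein MTCH1 (−0.42 ± 0.10) and the channel VDAC2 (−0.33 ± 0.08) fell. In SS against SM and ST, UCP3 was lower by 1.54 ± 0.27 (adjusted p = 0.0232) and CD36, which takes up fatty acids, higher by 1.09 ± 0.22 (adjusted p = 0.0498). In the 6 contrasts that remain none of the 26 was called. CD36 signals in NN were 7446 in SS, 4840.0 in SM and 2536 in ST.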

How the data were processed

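The 24 deposited tables hold 1 linear signal intensity per probe set (24128), made by the authors with MAS5, per the submitters' processing notes; its version was not given there. Values were floored at 1 (5477 of 579072 were at or below it), put on the log2 scale and averaged over the 2 arrays of a group. Control probe sets (112) were left out, and the 15613 probe sets that lay above the overall median in some group were tested with limma 3.58.1 in R 4.3.3 (12 group values in 8 cells, 4 residual degrees of freedom, intensity trend, two-sided, Benjamini-Hochberg over all tested probe sets). The fit was tested on simulated data. Gene symbols come from the platform annotation of 2016: 13318 probe sets have 1 symbol, 86 several and 10724 none. Named are the members past an adjusted p of 0.05, or else the 10 of smallest p, the kept transporters of the muscle list, and the most variable member of each class. The members and lists were chosen with earlier results of these data known. Alternatives covered the floor, filter, normalization, variance model, array averaging, replicate block, comparator genotypes, probe set choice and each array left out.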

Additional observations from a re-analysis of the deposited data

How the results depend on the processing

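The counts of members called rest on few group values. For CN at T0 (0) the count was 2 with a floor of 16, 2 with a filter at a mean signal of 100, 4 without CC in the comparator and 6 with arrays fitted singly under the group as random block. That random block gave 16 members for age (9), 2 for the difference between the ages (0) and 5 for the 4 muscles (3). With the replicate block added the counts were 6, 16, 1 and 5. Array numbers were not taken to pair the groups, because not every pair of groups was over 0.1: the differences between array 2 and array 1 correlated from −0.41 to 0.54 over 66 pairs (median 0.094), of which 33 were over 0.1. Without the intensity trend 1 member passed for age, 0 for SS against SM and ST and 0 for the 4 muscles. The 4 muscle count was 1 with the floor of 16, 1 with no filter on dim probe sets and 1 with the filter at 100. Leaving out 1 array at a time gave 0 to 1 for CN at T12, 0 to 4 for CN at T0, 5 to 11 for age, 1 to 4 for SS against SM and ST and 0 to 5 for the 4 muscles. The CN count at T0 was 3 without LD CN T0 replicate 1, 4 without LD CN T0 replicate 2 and 1 without LD CN T12 replicate 1 or SS NN T12 replicate 2. Among values of named members, 2096 kept direction and side of the threshold with 1 array left out, 48 lost a call, 15 gained one and 1 reversed (SLC25A20 for CN at T12, between −0.76 without LD CN T12 replicate 1 and 0.041 without LD CN T12 replicate 2). Under the other alternatives 595 kept both, 22 lost a call, 30 gained one and none reversed. SLC31A1, SLC4A1AP and SLC25A34 lost their age calls without CC. The cause of these shifts was not tested. Rule minimums of 50 and 200 would keep 118 and 35 symbols.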
